A study of Mus musculus with 2 samples.

Results

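The transcripts of 8 cholesterol synthesis genes, Hmgcs1, Idi1, Fdps, Fdft1, Sqle, Lss, Cyp51 and Insig1, were examined in pancreatic islets of RbΔK7 knock-in mice, set against islets of control mice. They were taken by gene name, and every non-control probe that carried one of these names in both scanner files was used, which gave 10 of the 55681 gene probes and 8 of the 34844 gene names on the array. RbΔK7 mice carry a knock-in allele whose Rb protein, the product of the retinoblastoma gene, cannot be phosphorylated in the normal way. Islets were freed with collagenase, picked under a microscope and frozen at once. The RNA of 2 RbΔK7 samples (Cy5) and 2 control samples (Cy3), described as biological replicates, was put on 2 dual-colour arrays, each with 1 sample of either genotype. The labels used here give no strain, age, sex or number of animals for either genotype, so p-values measure only the spread between these samples.

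Cells make cholesterol from acetyl-CoA by the mevalonate pathway, which first builds isoprenoid units, joins them into squalene, and then closes and trims the sterol rings. When sterols are scarce in the endoplasmic reticulum, SREBP transcription factors leave it with their escort SCAP. Once cut free, they move to the nucleus and raise the genes of nearly every step. These transcripts therefore serve as a readout of sterol demand. In beta cells, cholesterol shapes the membrane of insulin granules and the channels that drive insulin release.

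SREBP factors act at sterol regulatory elements, usually together with NF-Y at nearby CCAAT boxes, so promoter stretches with such letters are shown for the 5 of the 8 genes that had an entry in the RefSeq promoter table (build GRCm38.p6). Each entry covers 250 bases before and 50 after the start of the gene. In the lines that follow, capitals mark matches to the sterol regulatory element TCACNCCAC or to CCAAT on either strand (CCAAT reads ATTGG on the other strand), and each sequence runs 5′ to 3′ along the gene. Hmgcs1 lies at chr13:119690199-119690325 (+), Idi1 at chr13:8885546-8885605 (+), Lss at chr10:76531503-76531562 (+), Cyp51 at chr5:4104707-4104766 (-) and Insig1 at chr5:28071162-28071215 (+).
Hmgcs1: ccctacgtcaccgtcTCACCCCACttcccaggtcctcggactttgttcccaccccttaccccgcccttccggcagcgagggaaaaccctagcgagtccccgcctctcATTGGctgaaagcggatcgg
Idi1: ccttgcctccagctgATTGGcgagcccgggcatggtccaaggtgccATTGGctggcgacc
Lss: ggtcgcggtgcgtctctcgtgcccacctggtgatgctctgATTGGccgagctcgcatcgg
Cyp51: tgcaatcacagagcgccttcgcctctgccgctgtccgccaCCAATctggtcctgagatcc
Insig1: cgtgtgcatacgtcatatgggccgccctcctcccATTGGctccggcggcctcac

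A CCAAT box was found in 5 of these 5 promoters, at 9 places, against 37.4% of all 32851 promoters in the table. In Hmgcs1 the 4 boxes began 237, 176 and 45 bases before the start and at base 11 after it, and the stretch shown holds 1 of them, at 45. In Idi1 the 2 boxes began 45 and 14 bases before the start, in Lss 62, in Cyp51 29 and in Insig1 216. The sterol element was found in 1, that of Hmgcs1, 137 bases before the start, against 1.24% of all promoters. An E2F-like motif, TTTNNCGC, was in 0 of the 5, against 5.17% of all promoters. No 2 of these matches overlapped. A match is a run of letters and no measured binding site, and a missing match says only that these letters are not in this window.

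Some facts of the whole series bear on these genes. Both arrays carried the RbΔK7 sample in Cy5, so a difference between genotypes and one between dyes cannot be told apart. No gene spot was saturated, and 41.0% and 48.2% of gene spots were well above background in the RbΔK7 channel, against 37.0% and 38.1% in the control channel. The number of arrays limits the precision. The beta cell content of the samples was checked on 10 markers, and 10 of 10 were well above background in all 4 samples. So were 12 of 12 acinar markers, and the check does not show how pure the islets were. In the RbΔK7 and control samples of replicate 1 the log2 of the summed acinar level was 20.3 and 19.8. That of the beta cell markers was 18.7 and 19.0 there, and 19.4 and 18.5 in replicate 2. Acinar markers set the replicate 2 samples apart: the median log2 ratio of RbΔK7 over control over 12 of them was 0.46 for replicate 1 and -5.20 for replicate 2, and the log2 of their summed level was 16.5 in the RbΔK7 and 21.0 in the control sample of replicate 2. On that array Xist, the RNA that coats the silenced X chromosome, had a ratio of -1.22 on its brighter probe, and 0.37 on the other array.

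The 8 genes were measured on 8 probes that were well above background in all 4 samples. All 8 had a mean log2 ratio of RbΔK7 over control below 0, from -0.35 for Lss to -0.04 for Fdft1. Of the 22266 tested probes, 38.3% had a mean below that of Fdft1, and the median of all means was 0.01. On both arrays 6 of the 8 were below 0, a state shared by 25.3% of the tested probes. Ratios are log2 values after background correction and an intensity-dependent scaling (loess) within each array. The median of the 8 was -0.20 for replicate 1 and -0.24 for replicate 2, while that of all tested probes was 0.02 for either; the median of the 8 means, -0.20, is 0.873-fold. In bulk samples fewer cells of a type and less RNA per cell cannot be told apart. None passed limma's test at an adjusted p under 0.05, where 0.0135% of tested probes were called lower and 0.368% higher. At an unadjusted p under 0.05 limma gave 1 of the 8, Lss, against 11.4% of all tested probes. The unadjusted 95% intervals of the 8 reached from -0.67 to 0.29 in all, so the missed threshold does not show equal levels. The direction depends on the scaling. With each array centred on the median of its gene spots in place of loess, 0 of the 8 had a mean below 0.

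**Figure D1:**
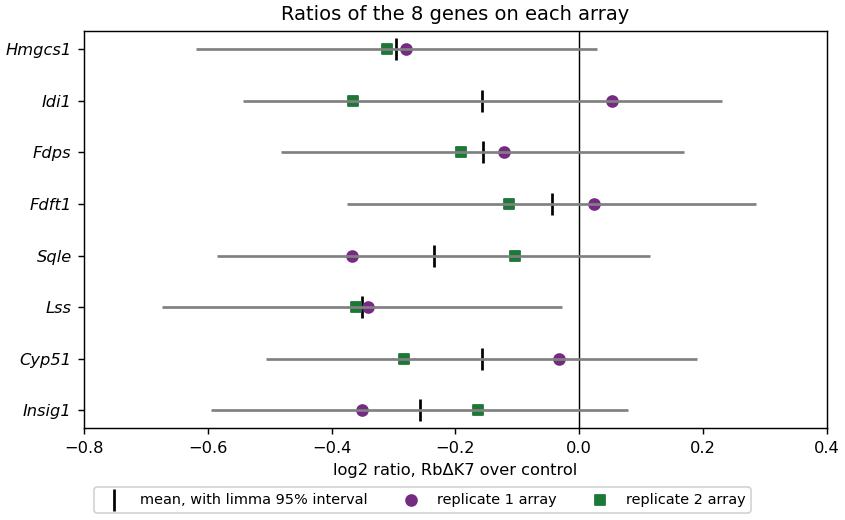
Log2 ratio of RbΔK7 over control (x axis) for each of the 8 genes, in the order of the pathway with Insig1 last; circles are the replicate 1 array, squares the replicate 2 array, ticks the mean and grey bars limma's unadjusted 95% interval. Ticks lie between -0.35 (Lss) and -0.04 (Fdft1), and the interval of Lss alone ends below 0, at -0.03.

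Hmgcs1 encodes the cytosolic synthase that makes HMG-CoA, the entry to the mevalonate pathway. It had normalized log2 levels of 9.32 and 9.68 in the RbΔK7 samples of replicates 1 and 2, against 9.60 and 9.99 in the control samples. Each RbΔK7 sample lay below the control sample of its own array, but the groups overlapped, since both replicate 2 samples were high. The 2 ratios were close to each other, -0.28 and -0.31 (mean -0.30 ± 0.022, SD, n = 2 arrays; limma adjusted p = 0.481, 95% interval -0.62 to 0.03). This probe lies on mm9 chromosome 13_random, from 114793 to 114852. A second Hmgcs1 probe, 114558 to 114617 on the same stretch, was not well above background in any sample and was not tested; it had 6.15 and 5.93 in the RbΔK7 samples, against 6.02 and 5.79 in the control samples (ratios 0.13 and 0.14).

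Idi1 encodes the isomerase that turns isopentenyl diphosphate into its reactive partner. Its levels were 7.85 and 8.24 in the RbΔK7 samples, against 7.80 and 8.60 in the control samples. The control samples differed from each other by 0.80, more than either ratio, and the arrays disagreed in sign, with 0.05 and -0.37 (mean -0.16 ± 0.30, SD, n = 2 arrays; limma adjusted p = 0.778, 95% interval -0.54 to 0.23). Without replicate 2 the value is therefore above 0. The Idi1 probe lies on mm9 chromosome 13 from 8891524 to 8891583. Fdps encodes the synthase that joins the units into farnesyl diphosphate, the branch point to sterols and protein prenylation. It had 10.01 and 10.54 in the RbΔK7 samples, against 10.13 and 10.73 in the control samples. The replicate 2 samples were again the higher ones, and the groups overlapped. The ratios of Fdps were -0.12 and -0.19 (mean -0.16 ± 0.049, SD, n = 2 arrays; limma adjusted p = 0.733, 95% interval -0.48 to 0.17). The Fdps probe lies on mm9 chromosome 3 from 88897549 to 88897608.

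Fdft1 encodes squalene synthase, the first step that commits farnesyl diphosphate to sterols. Its levels were 8.64 and 8.42 in the RbΔK7 samples, against 8.61 and 8.53 in the control samples, so the control values lay between the RbΔK7 values. Ratios were 0.02 and -0.11 (mean -0.04 ± 0.097, SD, n = 2 arrays; limma adjusted p = 0.943, 95% interval -0.38 to 0.29), the mean nearest 0 of the 8, and the value without replicate 2 is above 0. The probe covers 4241 bases of mm9 chromosome 14 (63765750 to 63769990), far more than its own length, so it does not lie in 1 piece there. The other probe of Fdft1, from 63764562 to 63764621, was not well above background in any sample and was not tested; it had 6.04 and 6.002 in the RbΔK7 samples, against 6.11 and 6.28 in the control samples (ratios -0.08 and -0.28).

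Sqle encodes squalene epoxidase, a slow and sterol-sensitive step. It had 10.78 and 11.15 in the RbΔK7 samples, against 11.15 and 11.25 in the control samples. The RbΔK7 sample of replicate 2 reached the control sample of replicate 1, and the difference was mostly on the replicate 1 array, with ratios of -0.37 and -0.10 (mean -0.24 ± 0.19, SD, n = 2 arrays; limma adjusted p = 0.612, 95% interval -0.59 to 0.11). The Sqle probe lies on mm9 chromosome 15 from 59162688 to 59162747. Lss encodes lanosterol synthase, which folds squalene epoxide into the first sterol. Its levels were 7.23 and 7.30 in the RbΔK7 samples, against 7.57 and 7.67 in the control samples. Both RbΔK7 samples were below both control samples, and Lss had the lowest mean of the 8. Its ratios were -0.34 and -0.36, a mean of -0.35 ± 0.014 (SD, n = 2 arrays) or 0.784-fold (limma unadjusted p = 0.038, adjusted p = 0.40, 95% interval -0.67 to -0.03). Of all tested probes 4.76% had a lower mean. The Lss probe lies on mm9 chromosome 10 from 76015992 to 76016051.

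Cyp51 encodes the demethylase that acts on lanosterol. Its probe was the dimmest of the 8 on the arrays, and its levels were 6.88 and 6.71 in the RbΔK7 samples, against 6.91 and 6.99 in the control samples. The groups did not overlap, but on the replicate 1 array they were nearly level, with ratios of -0.03 and -0.28 (mean -0.16 ± 0.18, SD, n = 2 arrays; limma adjusted p = 0.747, 95% interval -0.51 to 0.19). Insig1 is no enzyme: its protein holds SCAP and SREBP back in the endoplasmic reticulum, and the gene is itself raised by SREBP. It had 8.29 and 8.46 in the RbΔK7 samples, against 8.64 and 8.63 in the control samples. The control samples were nearly equal and both RbΔK7 samples lay below them. Ratios were -0.35 and -0.16 (mean -0.26 ± 0.13, SD, n = 2 arrays; limma adjusted p = 0.559, 95% interval -0.60 to 0.08). On mm9 chromosome 5 the Cyp51 probe lies from 4081471 to 4081530 and the Insig1 probe from 28404246 to 28404305.

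**Figure D2:**
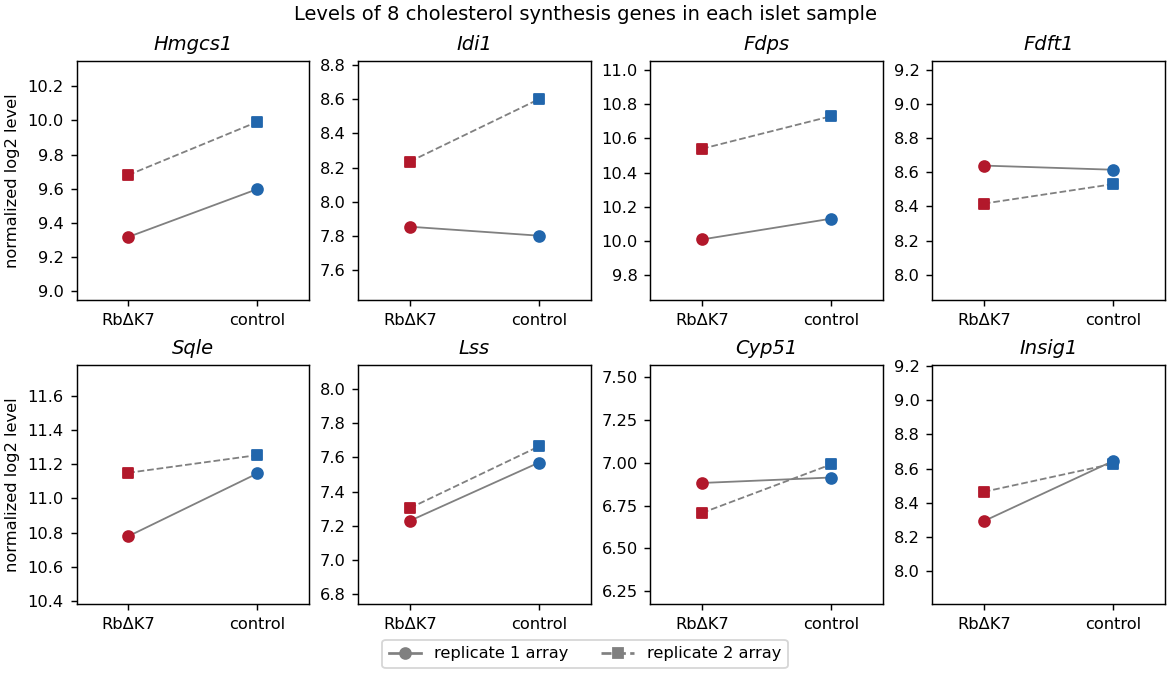
Normalized log2 level (y axis, 1.4 units in each panel) of the 8 genes in RbΔK7 (red, left) and control (blue, right) islets; lines join the samples of 1 array, solid with circles for replicate 1 and dashed with squares for replicate 2. Lss, Cyp51 and Insig1 have both RbΔK7 samples below both control samples. In Hmgcs1, Idi1, Fdps and Fdft1 the gap between arrays is larger, in either genotype, than the size of the mean ratio.

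In 3 of the 8 genes, Lss, Cyp51 and Insig1, both RbΔK7 samples were below both control samples, which held for 15.6% of all tested probes. In 4 of the 8, Hmgcs1, Idi1, Fdps and Fdft1, the 2 control samples differed from each other by more than the mean ratio. Spots of 1 probe printed at least 5 times on an array gave the technical spread: over the brightness range of the 8 probes their log2 ratios had a median SD of 0.091 on each array (177 and 201 probes). Each of the 8 probes was printed once on an array, so it has no such check of its own. The spread between spots covers neither the dyes nor the animals.

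**Figure D3:**
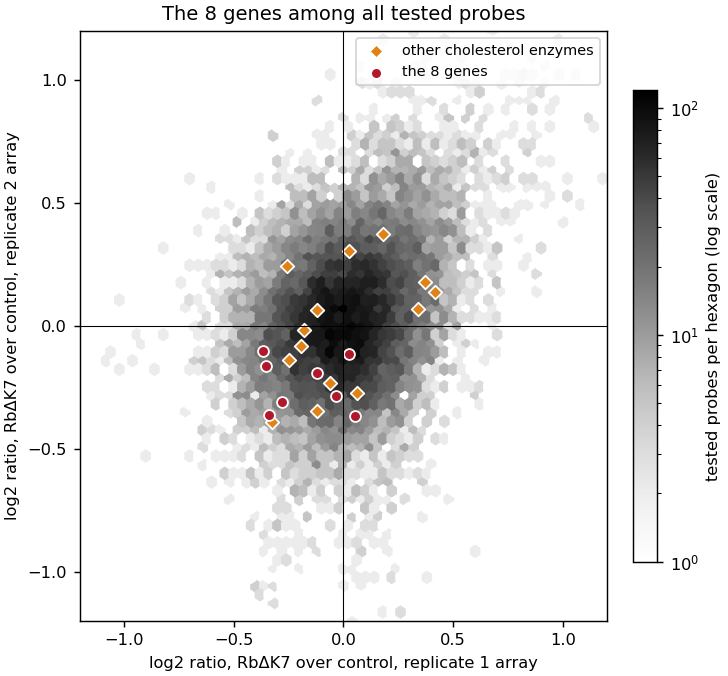
Log2 ratio of RbΔK7 over control on the replicate 1 array (x axis) and the replicate 2 array (y axis), both cut at 1.2; grey hexagons count tested probes on a log scale, red circles are the 8 genes and orange diamonds 14 other cholesterol enzymes. The 8 genes lie at or left of 0.05 and below 0, inside the cloud of all probes, while the other enzymes spread to both sides of 0.

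The remaining enzymes of the route did not share one direction. Of 15 such genes 14 were tested. On both arrays 6 were below 0, against 25.3% of all tested probes, and 5 were above 0. In limma's test 0 passed, and 1 had an unadjusted p under 0.05, against 11.4% of all tested probes. Their medians were -0.09 and 0.02. The lowest were Msmo1, the sterol methyl oxidase gene listed on the array as Sc4mol (-0.33 and -0.39; limma adjusted p = 0.392), and Mvd, the mevalonate diphosphate decarboxylase gene (-0.12 and -0.34). The highest were Dhcr7, the last reductase of the route to cholesterol (0.42 and 0.14), and Ebp, the sterol isomerase gene (0.18 and 0.37). Hsd17b7, a sterol ketoreductase gene, was too dim to be tested.

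Genes that control SREBP or take up cholesterol were centred near 0. All 14 were tested, with medians of 0.00 and 0.03. On both arrays 3 were below 0, against 25.3% of all tested probes, and 5 were above 0. In limma's test 0 passed, and 1 had an unadjusted p under 0.05, against 11.4% of all tested probes. That 1 was Srebf2, which encodes the SREBP most tied to cholesterol genes, with -0.48 and -0.37 (mean -0.43 ± 0.078, SD, n = 2 arrays; limma adjusted p = 0.321). Tmem97, a sterol-responsive membrane protein gene, had the lowest mean, with -0.05 and -2.42, and its other probe had 0.28 and -2.18. The ratio of Tmem97 on the replicate 2 array goes with that of the acinar markers there (median -5.20), and their part in it was not tested. Among the highest was Insig2, the relative of Insig1 (0.35 and 0.19).

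Among genes of cholesterol export and storage 1 of 7 tested rose and 0 fell, against 0.368% and 0.0135% of all tested probes. It was Apoe, which encodes the lipid carrier apolipoprotein E, and it was 2.57-fold higher. Its levels were 11.28 and 11.81 in the RbΔK7 samples, against 9.86 and 10.51 in the control samples. The ratios of Apoe were 1.42 and 1.30 (mean 1.36 ± 0.083, SD, n = 2 arrays; limma adjusted p = 0.0381). Stromal markers were higher beside it on both arrays in 8 of 8 genes, with the log2 of their summed level at 13.4 and 14.9 in RbΔK7 and 10.9 and 13.1 in control samples, and their part in the Apoe value was not tested. The call rests on the processing: Apoe did not pass with offset 0, Agilent's processed signals, the series matrix values or the trended and robust prior. The other 6 did not pass. Mylip, the ligase gene that turns over the LDL receptor, had 0.41 and 0.23. The lowest were the LXR genes Nr1h3 (-0.09 and -0.12) and Nr1h2 (-0.05 and -0.07), which encode the sterol sensors that switch on export, and 4 genes (Soat2, Ch25h, Cyp27a1 and Lcat) were too dim to be tested.

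Fatty acid genes, which SREBP also drives, mostly had opposite signs on the 2 arrays. Of 11 tested this held for 8, with medians of -0.12 and 0.07. In limma's test 0 passed, and 2 had an unadjusted p under 0.05, against 11.4% of all tested probes. Acly, whose enzyme makes cytosolic acetyl-CoA for both routes, had -0.52 and 0.52. The lowest were the desaturase genes Scd2 (-0.37 and -0.04) and Scd1 (-0.33 and 0.06). The highest were Me1, the malic enzyme gene (0.48 and 0.77; limma adjusted p = 0.196), and Fads1, another desaturase gene (0.45 and 0.46; limma adjusted p = 0.292).

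**Figure D4:**
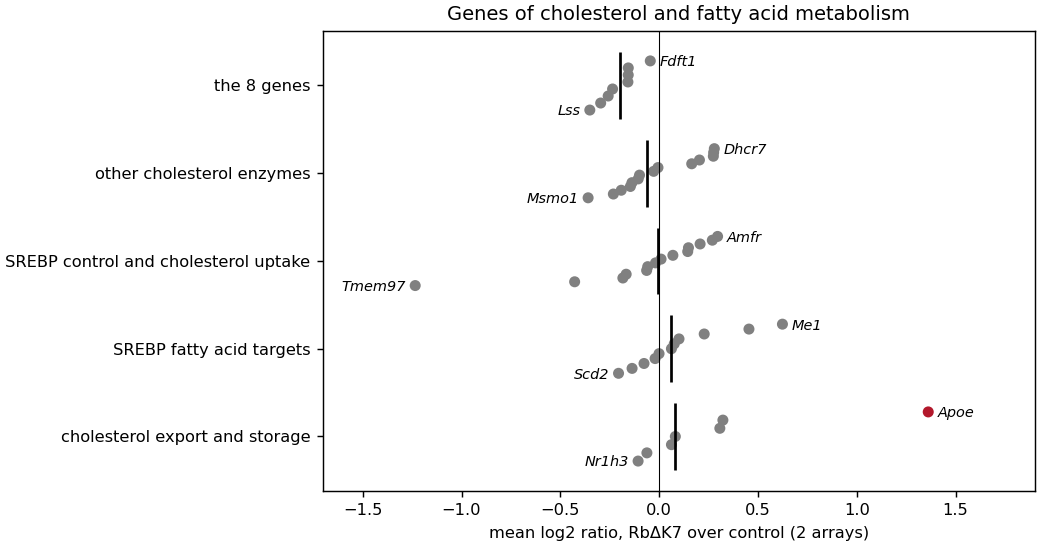
Mean log2 ratio of RbΔK7 over control on 2 arrays (x axis) for each tested gene of 5 lists, 1 probe a gene; black bars are list medians and red marks a gene with limma adjusted p under 0.05. The 8 genes all lie below 0, the other lists straddle 0, and Apoe at 1.36 is the 1 gene in red.

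Of the 46 tested genes in these other lists, Tm7sf2 (-0.25 and -0.14), a sterol reductase gene, and Mvd were among the 3 with ratios closest to the median of the 8. Their distances from that median over the 2 arrays were 0.111 for Tm7sf2 and 0.135 for Mvd, in log2 units. Ranked on only 2 ratios, these genes are named as a description.

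Markers of the cell types that islet preparations can hold were read beside the 8 genes. Beta cell markers had medians of -0.58 and 0.25 over 10 genes, with 9 of opposite sign, and the log2 of their summed level was 18.7 and 19.4 in RbΔK7 and 19.0 and 18.5 in control samples. Other endocrine markers had medians of 1.29 and 0.15 over 8 genes. Duct markers (6 tested) had 0.59 and 0.81, endothelial markers (6) 0.42 and 0.51, and leukocyte markers (6) -0.11 and 0.15. Of 6 adipose markers only Fabp4 was bright enough to test, with 1.33 and -0.01. The stromal list had medians of 2.62 and 1.73. The part of these cell types in the ratios of the 8 genes was not tested.

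The scaling of the arrays decided the sign of the 8 means. With median centring the median of all tested probes was 0.39 for replicate 1 and 0.84 for replicate 2. The 8 genes then had means from 0.18 (Cyp51) to 0.71 (Fdps). None of them passed the test, while 6735 of all 22266 tested probes did. Relative to all tested probes, the median of the 8 was then -0.12 for replicate 1 and -0.01 for replicate 2; 5 of 8 were below the median of all for either replicate, and 4 of 8 for both, against 36.6% of all tested probes. With loess these differences were -0.22 and -0.26. With Agilent's processed signals, which carry the software's own dye normalization, the 8 means ran from -0.64 (Lss) to -0.18 (Fdft1) and 8 of 8 were below 0 on both arrays. With these signals 8 of 8 were also below the median of all on both arrays, against 29.3% of all tested probes. Limma called 0 of the 8 in that setting too, as it called 0 of all 22266 tested probes. At an unadjusted p under 0.05 limma gave 1 of the 8 and 2351 of all tested probes.

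**Figure D5:**
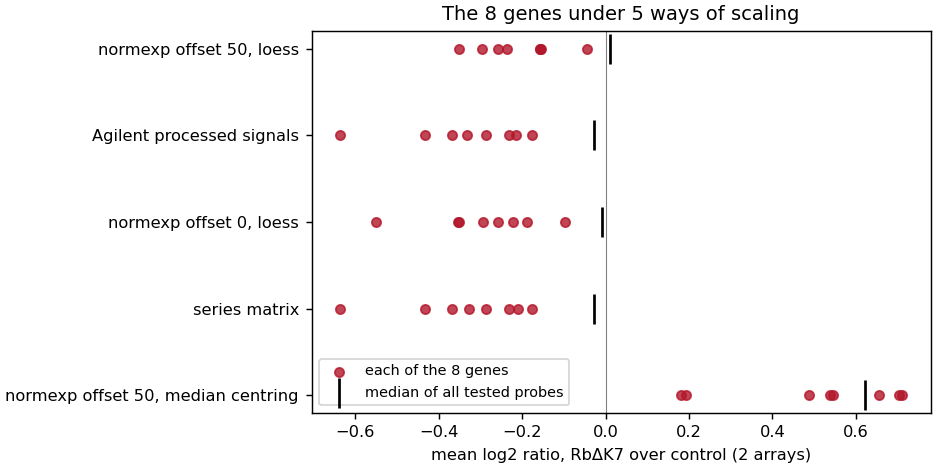
Mean log2 ratio of RbΔK7 over control on 2 arrays (x axis) of each of the 8 genes (red) under 5 ways of scaling the arrays, with the median of all tested probes as a black tick. The 8 genes lie below that tick in every setting but median centring, where they lie on both sides of it, between 0.18 and 0.71. The series matrix holds the software's ratios of the processed signals, so these 2 settings are not separate.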

How the data were processed

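Per the file headers and the submitters' processing notes, Agilent Feature Extraction 10.7.3.1 quantified the arrays, and the headers place probes on mm9. The deposited intensity values are mean spot signals and median local backgrounds, and processed signals that the software had background-subtracted, detrended and dye-normalized, per the file headers. The deposited log10 ratios are of red (RbΔK7) over green (control) processed signals, and the authors' series matrix holds the same values (largest difference 0, column medians 0 and 0).

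With limma 3.58.1 in R 4.3.3, signals were corrected by normexp (offset 50) and ratios normalized by loess within each array (span 0.3, control spots at weight 0). The offset pulls ratios of dim probes towards 0. Control spots and 4 non-uniform gene spots per array were left out, and spots of 1 probe averaged. A probe was tested when either channel of each array marked it as well above background. The 2 ratios, in which mutant and control are paired by array, were tested against 0 with lmFit and eBayes, two-sided, Benjamini-Hochberg adjusted over all 22266 probes at 0.05, with 1 residual degree of freedom per probe and 4.90 from the prior. The step was tested on simulated data. Levels per sample are after Aquantile scaling. Lists used 1 probe a gene, the brightest. The mean ratios of a gene's tested probes differed in sign for 1 of the other cholesterol enzymes. They also did for 2 genes of SREBP control and uptake and 2 fatty acid genes. Every probe of the 8 genes is named. In the other lists the genes that passed, or else the 2 highest and 2 lowest, are named, with further genes chosen after their values were seen. Of the 10 probes, 9 matched their gene by RefSeq accession. The genes and lists were chosen with earlier results of these data known. Alternatives were other background, scaling, filter, prior and separate-channel settings. Exon and UTR annotation was not used here. Some genes of the other lists that this rule names are not reported here.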

Additional observations from a re-analysis of the deposited data

How the results depend on the processing

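The count of the 8 genes past the test was 0 in all 10 fits, with member adjusted p from 0.077 to 0.966. Relative to the median of the 8 means, -0.20, offset 0 gave -0.28, processed signals -0.31, the series matrix values -0.31 and median centring 0.54, and leaving out 1 replicate gave -0.24 to -0.20, with 6 to 8 of the 8 below 0. With median centring 0 were below 0 on both arrays, and the means were 0.55 for Hmgcs1, 0.54 for Idi1, 0.71 for Fdps, 0.70 for Fdft1, 0.66 for Sqle, 0.19 for Lss, 0.18 for Cyp51 and 0.49 for Insig1. Median centring puts 0 at the median of all gene spots of an array, dim ones included. The tested probes then had medians of 0.39 for replicate 1 and 0.84 for replicate 2, so the 8 genes moved up with them. Why the tested probes lay above the median of all spots was not tested. Over all probes 82 were called higher and 3 lower. Both counts were 0 with offset 0, processed signals, the series matrix values, the trended and robust prior and separate channels without the replicate block, where Apoe also did not pass (0 list genes higher). They were 6664 and 71 of 22266 tested probes with median centring, where 16 list genes were called higher. With no filter they were 323 and 32 of 55673. At an unadjusted p under 0.05 limma gave 2471, 2351, 2355, 2143 and 1497 probes in the settings with 0 calls. Separate channels with the replicate block gave 82 and 3 again, as the paired ratios do. Leaving out 1 replicate gave -0.37 to 0.052 for Idi1 and -0.11 to 0.024 for Fdft1, and the values above 0, without replicate 2, have the other sign than the means. Of the values of the single genes under the alternatives these 10 changed sign and 78 did not. Many of the 78 could not change: the filter, prior and separate-channel settings keep the mean ratios of the main fit. The series matrix nearly repeats the values from the processed signals, of which it holds the ratios. The count is therefore no measure of how stable the signs are. With 1 array no test could be made. Both arrays lay on 1 slide, so no slide block was possible.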
